A study of Mus musculus with 6 samples.

Results

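The 8 genes Cck, Npy, Sst, Vip, Tac1, Penk, Pdyn and Crh, each of which encodes the precursor of a neuropeptide, were taken by name from the 20234 genes of the deposited table, and all 8 were present. They were followed in CA1 of 6 male C57Bl6 mice at postnatal day 28, of which 3 were injected once with placebo and 3 with 5000 IU/kg recombinant human EPO (rhEPO), and which were killed 6 h later. Single cells were profiled by Drop-seq, a droplet method that tags every transcript with a barcode shared by the cell and with a molecular identifier of its own (UMI). The questions were which neurons carry each gene, how much of its signal lies in cells that should lack it, and whether its level differed between treatments.

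Of 6000 barcodes in the table, 1632 were retained, which had more than 500 and at most 8000 detected genes and a mitochondrial share of no more than 40%. They held 7875760 UMIs, from 267231 UMIs in 90 barcodes of placebo mouse 3 to 2150763 UMIs in 405 barcodes of EPO mouse 4. Mitochondrial UMIs took a median of 4.61% per barcode in EPO mouse 6, the lowest, and 19.0% in EPO mouse 2, the highest. The labels add D1 to placebo mice 1 and 3 and EPO mouse 2, and D2 to placebo mouse 5 and EPO mice 4 and 6, and the meaning of D is not given. The mice are the replicates, so that 3 values stand for each treatment.

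Barcodes of placebo mouse 1 and EPO mouse 4 were not fully separate. In all, 41 retained barcode sequences occurred in 2 mice, and all 41 pairs joined these 2 mice. Every pair held more UMIs in placebo mouse 1, by a median ratio of 4.03 (range 3.16 to 5.87). The log-normalized profiles of the paired barcodes correlated with Pearson's r of 0.54 to 0.87 across genes, which are not independent replicates. No r was computed for unpaired barcodes, so this range alone does not show that the pairs match. All 41 pairs fell into the same class of cell when Slc17a7 cells and ungated barcodes, both defined below, were counted as 1 class, and none was a Gad cell. They made up 14.9% of the retained barcodes of placebo mouse 1 and 10.1% of those of EPO mouse 4. Some of the results that include them are given with and without them, and the others only with them.

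Neuropeptides are cut from longer precursors, stored in dense core vesicles and released to act on G protein-coupled receptors. In the hippocampus most of these genes are known as markers of inhibitory interneurons: somatostatin (Sst) of cells that target dendrites, vasoactive intestinal peptide (Vip) of cells that often inhibit other interneurons, neuropeptide Y (Npy) of neurogliaform and ivy cells among others, and cholecystokinin (Cck) of a class of basket cells. Cck is also transcribed in pyramidal cells. Tac1 encodes substance P, Penk the enkephalins, Pdyn the dynorphins and Crh corticotropin-releasing hormone.

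Cells were placed in classes without use of these 8 genes. Gad cells, the putative interneurons, had at least 2 UMIs of Gad1 and Gad2, which encode the enzymes that make GABA, and more of these than of Slc17a7. Slc17a7 cells, the putative pyramidal cells, had at least 1 UMI of Slc17a7, which encodes the vesicular glutamate transporter VGLUT1, no Gad UMI and no glial gate. The gates gave 65 Gad cells, 325 Slc17a7 cells, 543 glial cells, 86 endothelial cells and 48 mural cells, and left 565 barcodes ungated. Placebo mice 1, 3 and 5 held 5, 1 and 20 Gad cells, and EPO mice 2, 4 and 6 held 7, 18 and 14. With 1 Gad cell, placebo mouse 3 was left out of every test on Gad cells.

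The gates matched other marker genes. All 9 GABAergic genes checked, among them the vesicular GABA transporter gene Slc32a1, had a higher level, as UMIs of the gene per 1e6 UMIs (CPM) pooled over mice, in Gad cells than in Slc17a7 cells. Of these, 8 were also higher than in glial cells, the exception being Sox6. All 8 pyramidal genes checked, among them Neurod6, were higher in Slc17a7 cells than in both other classes. Ungated barcodes held Neurod6 at 407 CPM against 609 in Slc17a7 cells and 28.1 in glial cells. The Slc17a7 gate rested on exactly 1 UMI in 164 of 325 cells, and 4 Gad cells held a Slc17a7 UMI. No doublet caller was run.

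The stretches before the start sites of the 4 genes that each led several Gad cells are shown because cAMP signaling is known to act on Sst and Vip through an element with the core TGACG. Each is the 100 bases before the start site of the RefSeq annotation (GRCm38.p6), written 5′ to 3′ on the strand of the gene, with TGACG and its reverse complement CGTCA in capitals.
Cck (chr9:121495695-121495794, minus strand): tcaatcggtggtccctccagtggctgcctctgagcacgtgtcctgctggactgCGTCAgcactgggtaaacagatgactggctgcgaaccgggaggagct
Npy (chr6:49822610-49822709, plus strand): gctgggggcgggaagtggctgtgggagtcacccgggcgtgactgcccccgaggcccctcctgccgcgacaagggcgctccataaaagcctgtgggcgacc
Sst (chr16:23890845-23890944, minus strand): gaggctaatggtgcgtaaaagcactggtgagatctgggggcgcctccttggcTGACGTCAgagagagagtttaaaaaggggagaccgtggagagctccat
Vip (chr10:5639118-5639217, plus strand): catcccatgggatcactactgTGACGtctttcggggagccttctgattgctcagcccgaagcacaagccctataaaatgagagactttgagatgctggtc
The full palindrome TGACGTCA was found in 588 of 32851 RefSeq promoters of 250 bases before to 50 after the start (1.79%). Among the 6 neuropeptide genes with a promoter in that set, Sst alone held it, with its first base 48 before the start. The 5-base core on either strand, which the palindrome contains on both strands, occurred in 20.8% of all promoters and in those of Cck, Sst, Tac1 and Vip, and its letters were not found in the windows of Npy and Pdyn. The RefSeq start of Sst lies 114 bases inside the gene as GENCODE vM21 draws it, and those of Cck, Npy and Vip coincide with it. GENCODE places Tac1 at chr6:7554879-7565834, Penk at chr4:4133531-4138819, Pdyn at chr2:129686565-129699844 and Crh at chr3:19693401-19695396, all as protein-coding genes of GRCm38.

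Cck was carried by most Slc17a7 cells, by a smaller share of Gad cells and by few glial cells. A carrier is a cell with at least 1 UMI of the gene. Of 4727 Cck UMIs, 60.7% lay in Slc17a7 cells, 30.5% in ungated barcodes and 5.75% in Gad cells, against 118 UMIs in glial cells. Carriers were 244 of 325 Slc17a7 cells (75.1%, 95% exact binomial interval 70.0 to 79.7), 25 of 65 Gad cells (38.5%, 26.7 to 51.4) and 68 of 543 glial cells (12.5%, 9.86 to 15.6). These intervals cover counting error only. Median depth was 6776, 3822 and 2013 UMIs in these classes, so every cell was also thinned to 1000 UMIs, which left out 3, 1 and 46 shallower cells. The order of the shares held after thinning, with 39.8%, 14.1% and 4.83%.

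In CPM per mouse, Cck in Slc17a7 cells was 672, 1097 and 821 in placebo mice 1, 3 and 5 and 1084, 545 and 1319 in EPO mice 2, 4 and 6. In glial cells of the same mice it was 164, 74.6 and 66.9 and then 12.6, 14.5 and 81.5. No glial value reached the lowest Slc17a7 value. Summed counts of Slc17a7 and glial cells were compared within mice by edgeR's quasi-likelihood test with Benjamini-Hochberg adjustment, in which 60.8% of 6543 genes passed an adjusted p of 0.05, 29.4% as higher in Slc17a7 cells. Cck was higher in Slc17a7 cells by 3.47 on the log2 scale (SE 0.27, adjusted p = 2.42e-13, higher in 6 of 6 mice). Without the shared barcodes the difference was 3.59 (SE 0.29, adjusted p = 2.87e-11), and the glial value of placebo mouse 1 was 139 CPM.

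Gad cells also held more Cck than glial cells, and their level was carried by few cells. In Gad cells Cck was 498 CPM in placebo mouse 1, 1986 in placebo mouse 5 and 135, 204 and 198 in EPO mice 2, 4 and 6. It was higher than in glial cells of the same mouse in 5 of 5 mice (log2 difference 2.90, SE 0.40, adjusted p = 4.12e-11 in edgeR, where 47.3% of 2952 genes passed, 19.8% as higher in Gad cells). Of 272 Cck UMIs in Gad cells, 168 came from 1 barcode of placebo mouse 5. That barcode held 22 UMIs of Npy and 22 of Adarb2, a marker of interneurons from the caudal ganglionic eminence. Without it the pooled level in Gad cells fell from 721 to 295 CPM, and placebo mouse 5 had 553 CPM.

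Whether Cck was called between Gad and Slc17a7 cells changed with the setting. Their log2 difference was -0.83 (SE 0.32, adjusted p = 0.0532 in edgeR), with Gad cells lower in 4 of 5 mice. Without the barcode highest in each gene it was -1.22 (SE 0.30, adjusted p = 9.89e-04). In this comparison 16.0% of 5024 genes passed, 8.56% as lower in Gad cells. The 1 mouse that went the other way was placebo mouse 5, and without it the difference was -1.59 (adjusted p = 1.16e-04). With the highest barcodes included, Cck was also called without the filter on low counts (-1.26, adjusted p = 0.00764) and with a wider gate of glutamatergic cells (-0.87, adjusted p = 0.0494). Over all alternatives the adjusted p ran from 1.16e-04 to 0.719.

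Penk was carried by Slc17a7 cells and ungated barcodes and was nearly undetected in glia. Of 246 Penk UMIs in 129 carriers, 54.9% lay in Slc17a7 cells and 40.7% in ungated barcodes. Carriers were 63 of 325 Slc17a7 cells (19.4%, interval 15.2 to 24.1) and 58 of 565 ungated barcodes (10.3%, 7.89 to 13.1), against 2 of 543 glial cells (0.37%, 0.045 to 1.32). Gad carriers were 5 of 65. No barcode held more than 7 UMIs, so that after thinning to 1000 UMIs 10 of 322 Slc17a7 cells and none of 497 glial cells still carried it.

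Slc17a7 cells of placebo mice 1, 3 and 5 had Penk at 27.5, 180 and 52.5 CPM, and those of EPO mice 2, 4 and 6 at 43.3, 31.7 and 41.5 CPM. The value of 180 belongs to placebo mouse 3, whose 11 Slc17a7 cells held 13 Penk UMIs. Glial cells were at 4.91 CPM in placebo mouse 1 and had no Penk UMI in the other 5 mice. The log2 difference was 4.71 (SE 0.61, adjusted p = 3.24e-08 in edgeR, higher in 6 of 6 mice). Penk passed the filter on low counts only through Slc17a7 cells, so the filter fixed the direction of a call. In the fit without that filter, which called 33.6% of 18287 genes, Penk was higher by 4.84 (adjusted p = 6.14e-16 in edgeR). Both glial Penk UMIs sat in shared barcodes of placebo mouse 1. Without the shared barcodes no glial cell held Penk, and the gene no longer passed the filter on low counts of this comparison.

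Slc17a7 cells with Penk stood higher than those without it in some pyramidal genes. They were deeper, with a median of 11968 against 5574 UMIs, so levels are given as CPM averaged over 6 mice and without a test. Neurod6, a transcription factor of pyramidal cells, stood at 859 ± 83.9 CPM (SD, n = 6) in carriers and 467 ± 106 in the others. Calb1, which encodes calbindin and marks superficial CA1 pyramidal cells, stood at 284 ± 140 and 133 ± 115 CPM. Both were higher in carriers in 6 of 6 mice, as were Nrgn and Cck. Other pyramidal genes lay closer, with Camk2a at 812 ± 145 and 793 ± 204 CPM (higher in carriers in 4 of 6 mice), Mpped1 at 200.3 ± 14.1 and 180.0 ± 45.3 CPM (3 of 6), Wfs1 at 240 ± 129 and 188 ± 107 CPM (4 of 6) and Neurod2 at 283 ± 46.1 and 246 ± 166 CPM (5 of 6). Slc17a6 and Tshz2, genes known from subicular and deep-layer neurons, were higher in carriers in 1 of 6 mice each, with 26.3 ± 43.1 against 88.2 ± 58.0 CPM for Slc17a6. Of the other deep-layer genes on the list, Hs3st4 stood at 89.5 ± 55.6 and 81.3 ± 53.6 CPM (higher in 4 of 6) and Tle4 at 41.0 ± 34.3 and 45.1 ± 16.9 CPM (1 of 6). The part of depth in these differences was not tested.

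**Figure D1:**
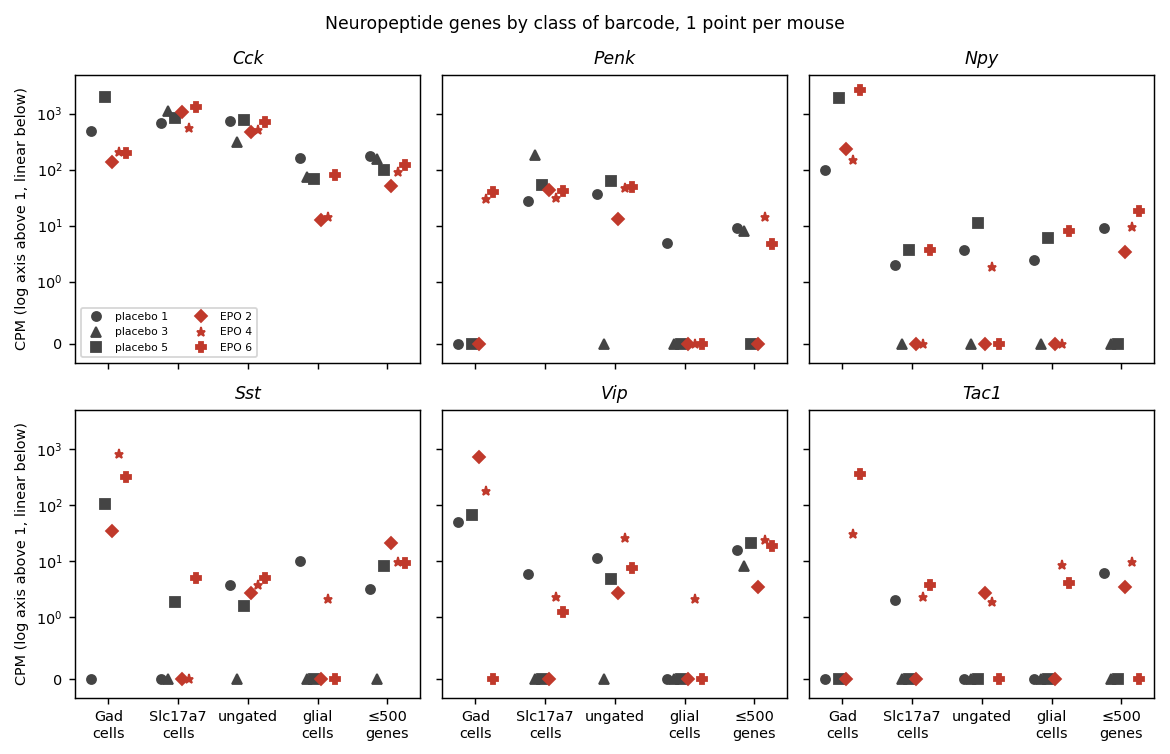
Level in CPM (vertical axis, logarithmic above 1 and linear below) of 6 neuropeptide genes in Gad cells, Slc17a7 cells, ungated barcodes, glial cells and barcodes with at most 500 genes; each point is 1 mouse, grey for placebo and red for EPO, and placebo mouse 3 has no Gad point. Cck stands between 545 and 1319 CPM in Slc17a7 cells of all mice, and Npy is at or above 99.7 CPM only in Gad cells.

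Npy lay mainly in Gad cells, which held 94.9% of its 394 UMIs in retained barcodes. Carriers were 22 of 65 Gad cells (33.8%, interval 22.6 to 46.6), 6 of 325 Slc17a7 cells (1.85%) and 4 of 543 glial cells (0.74%), so that the share in Slc17a7 cells was near that of glia. Gad cells of placebo mice 1 and 5 had Npy at 99.7 and 1921 CPM, and those of EPO mice 2, 4 and 6 at 237, 150 and 2631 CPM. In Slc17a7 cells it was at most 3.75 CPM in any mouse. Both high mice drew on single barcodes, with 134 Npy UMIs in placebo mouse 5 and 120 in EPO mouse 6, which together made 64.5% of all Npy UMIs.

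Npy was called higher in Gad cells with and without those barcodes. It was higher in Gad than in Slc17a7 cells by 9.08 on the log2 scale (SE 0.52, adjusted p = 5.57e-65 in edgeR, higher in 5 of 5 mice) and by 8.84 (SE 0.51, adjusted p = 2.83e-63) without the barcode highest in each gene, which removed that of placebo mouse 5. Without the 2 barcodes highest in each gene, which removed both, it was higher by 7.42 (SE 0.52, adjusted p = 8.55e-43). Cck and Npy passed the filter on low counts in this comparison, in which 7.44% of all genes tested were called higher in Gad cells. Npy, with 6 UMIs in Slc17a7 cells, passed it only through Gad cells, so the filter fixed the direction of a call. In the fit without that filter Npy was higher by 8.69 (adjusted p = 1.10e-45 in edgeR). Against glial cells, where it also passed only through Gad cells, Npy was higher by 7.72 (SE 0.57, adjusted p = 1.38e-30 in edgeR).

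Sst was found in Gad cells too, but most of its UMIs came from 1 cell. Of 182 Sst UMIs, 90.7% lay in Gad cells and 135 in a single Gad cell of EPO mouse 4, which also held 2 UMIs of Lhx6, a marker of interneurons from the medial ganglionic eminence. Carriers were 13 of 65 Gad cells (interval 11.1% to 31.8%), 4 of 325 Slc17a7 cells and 5 of 543 glial cells. Gad cells of placebo mice 1 and 5 had Sst at 0 and 102 CPM, and those of EPO mice 2, 4 and 6 at 33.9, 823 and 317 CPM. The value of 823 fell to 13.1 CPM without the 1 cell.

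Vip had 91 UMIs in 25 carriers, and a part of them lay outside the Gad gate. Gad cells held 59 of these UMIs in 10 of 65 cells (15.4%, interval 7.63 to 26.5), ungated barcodes held 24, and 1 glial cell held 1. Gad cells of placebo mice 1 and 5 had Vip at 49.8 and 65.0 CPM, and those of EPO mice 2, 4 and 6 at 711, 174 and 0 CPM. An ungated barcode of EPO mouse 4 held 10 Vip UMIs with 1 Gad UMI, so that it missed the gate by 1 UMI. No retained barcode held more than 19 Vip UMIs.

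Tac1, Pdyn and Crh were scarce. Tac1 had 36 UMIs, of which 18 came from 1 Gad cell of EPO mouse 6 that also held 4 UMIs of Sst and 2 of Lhx6. The other Tac1 carriers of the Gad class were 4 cells of EPO mouse 4. Crh had 4 UMIs, 3 in a Gad cell of EPO mouse 2 and 1 in a Gad cell of placebo mouse 5. Pdyn had 1 UMI, in an ungated barcode of EPO mouse 2, and 0 of 65 Gad cells held it, which allows a share of cells with a UMI of up to 4.62% and does not limit the share that expresses it.

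Sst, Vip and Tac1 failed the filter on low counts between Gad and Slc17a7 cells, and were tested in a fit of all 17111 genes with a UMI, of which 6.08% were called and 2.05% were higher in Gad cells. All 3 were among them, with log2 differences of 7.21 for Sst (SE 0.64, adjusted p = 1.40e-26), 5.87 for Vip (SE 0.58, adjusted p = 1.60e-21) and 4.91 for Tac1 (SE 0.80, adjusted p = 1.17e-07), all by edgeR. Sst and Vip were each higher in Gad cells in 4 of 5 mice and Tac1 in 2 of 5. Without the barcode highest in each gene, Sst stayed higher by 5.64 (adjusted p = 8.70e-12) and Vip by 5.19 (adjusted p = 6.34e-13), but Tac1 no longer passed (2.33, adjusted p = 0.459). Tac1 also failed without EPO mouse 6 (2.90, adjusted p = 0.476). With limma in place of edgeR, Sst passed at an adjusted p of 0.0307, Vip did not at 0.0509 and Tac1 did not at 0.264, while DESeq2 called all 3. Against glial cells, in a fit of 16381 genes of which 17.6% were called and 5.61% were higher in Gad cells, the log2 differences were 5.71 for Sst (adjusted p = 6.36e-13), 6.53 for Vip (adjusted p = 4.00e-14) and 3.33 for Tac1 (adjusted p = 0.00130). Tac1 was lost there without EPO mouse 6 (1.37, adjusted p = 0.756), without the barcode highest in each gene (0.96, adjusted p = 0.769), with limma (1.01, adjusted p = 0.174) and with DESeq2 (2.43, adjusted p = 0.606).

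The same fit found no call for Penk or Crh between Gad and Slc17a7 cells. Penk was lower in Gad cells in 5 of 5 mice (log2 difference -1.22, SE 0.61, adjusted p = 0.305). Crh had no UMI in Slc17a7 cells, which allows up to 0.93 CPM over the class, against 4 UMIs or 10.6 CPM in Gad cells. Between Slc17a7 and glial cells, Npy, Sst, Vip and Tac1 were not called in the fit of all 18287 genes with a UMI, of which 33.6% were called (adjusted p from 0.626 to 0.714 by edgeR), and each stood at or below 5.89 CPM in Slc17a7 cells of any mouse.

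**Figure D2:**
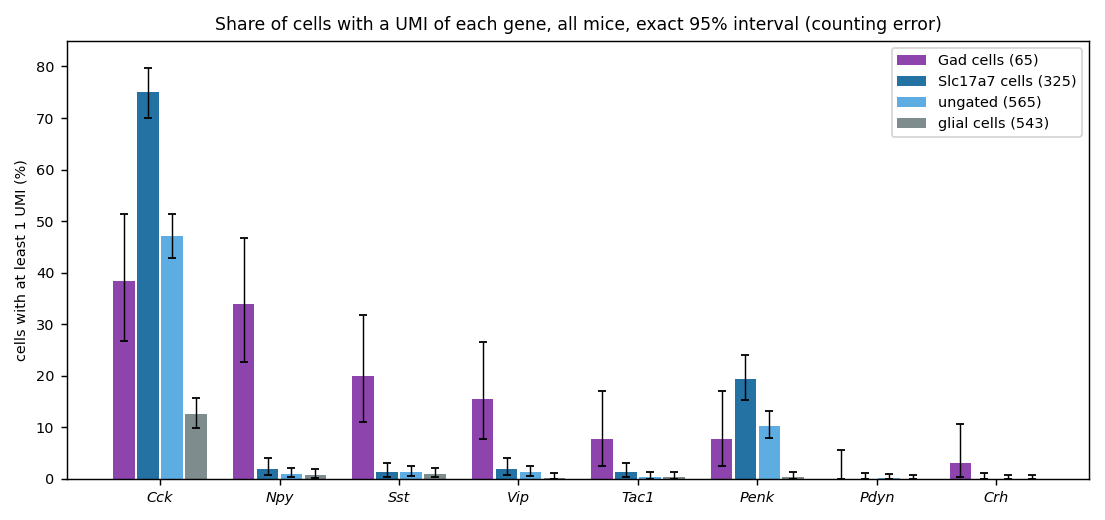
Share of cells with at least 1 UMI (vertical axis, percent) of each neuropeptide gene in Gad cells (65), Slc17a7 cells (325), ungated barcodes (565) and glial cells (543) of all mice; bars are pooled shares and whiskers exact 95% intervals for counting error. The tallest bar is Cck in Slc17a7 cells at 75.1%, and Npy and Vip reach 33.8% and 15.4% in Gad cells against at most 1.85% in the other classes.

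Within the Gad class the carriers of these genes overlapped in part. Of 65 Gad cells, 6 carried none of the 8 genes, 37 carried 1 of them, 21 carried 2 and 1 carried 3 or more. A stricter count took the 20 cells with at least 5 UMIs of some neuropeptide gene. Cck led in 7 of these, Npy in 6, Sst in 3, Vip in 3 and Tac1 in 1, and 3 cells passed 5 UMIs for 2 genes. Cells with at least 5 Cck UMIs came from 4 mice, those with 5 Npy or Sst UMIs from 3 mice each and those with 5 Vip UMIs from 2.

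No Gad cell held both Vip and Sst or both Vip and Npy, among 10 Vip, 13 Sst and 22 Npy carriers. Npy and Sst met in 1 cell. Cck and Npy met in 9 cells, the most of any pair. Vip and Penk met in 3 of the 5 Penk carriers of this class, and Sst and Tac1 in 2 of the 5 Tac1 carriers. At a median of 3822 UMIs per cell an absent UMI does not show an absent transcript, and no test was made on these pairs.

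The lineage markers that carriers held are given here as counts of cells. Adarb2 was found in 14 of 22 Npy carriers, 8 of 10 Vip carriers and 12 of 25 Cck carriers, but in 1 of 13 Sst carriers and 0 of 5 Tac1 carriers. Lhx6, which marks the other large lineage, was found in 4 of 5 Tac1 and 3 of 13 Sst carriers, in 4 of 25 Cck carriers, in 1 of 22 Npy carriers and in 0 of 10 Vip carriers. Pvalb, which encodes parvalbumin, was seen in 4 of 5 Tac1, 7 of 25 Cck, 2 of 22 Npy, 1 of 13 Sst and 0 of 10 Vip carriers. Sst carriers were shallower than Npy carriers, with medians of 2408 and 4366 UMIs, and Vip carriers had a median of 1720.

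Npy and Vip carriers parted on some further genes of the list. Reln, the secreted protein reelin, was found in 11 of 22 Npy carriers and 0 of 10 Vip carriers. Ndnf and Lamp5, known from neurogliaform cells, were found in 7 and 8 Npy carriers and in 0 and 1 Vip carriers. Lamp5 was also found in 5 of 25 Cck carriers, 2 of 13 Sst carriers and 77 of 325 Slc17a7 cells. The part of the greater depth of Npy carriers in these counts was not tested. In Vip carriers Prox1 was found in 6, the serotonin receptor gene Htr3a in 4 and Calb2, which encodes calretinin, in 4 of 10 cells. Prox1 was also found in 4 of 22 Npy and 6 of 25 Cck carriers, and Htr3a in 2 and 5 of these. No Cck, Npy, Sst or Tac1 carrier held Calb2. Other genes lay closer, with Nos1 in 3 Npy carriers and 1 Vip carrier, and Npas1 in 3 and 2. Cnr1, the cannabinoid receptor gene known from Cck basket cells, was found in 16 of 25 Cck, 14 of 22 Npy and 5 of 10 Vip carriers. It was also found in 6 of 13 Sst and 2 of 5 Tac1 carriers, in 35 of all 65 Gad cells and in 130 of 325 Slc17a7 cells.

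**Figure D3:**
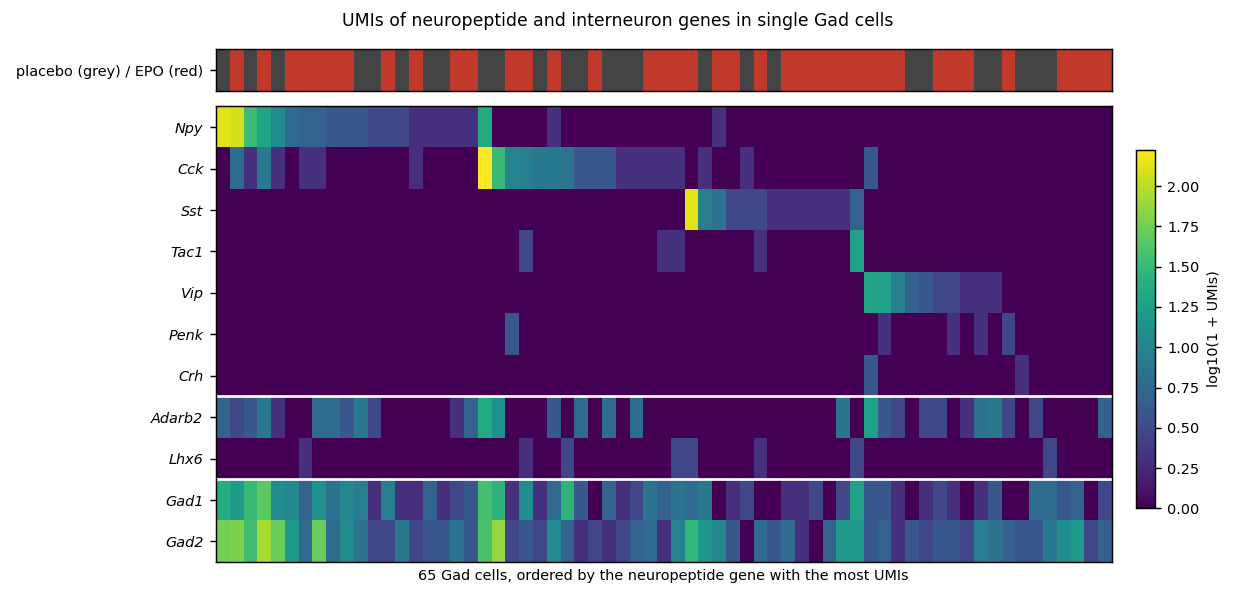
UMIs on the scale log10(1 + UMIs) (color) of 7 neuropeptide genes, Adarb2, Lhx6, Gad1 and Gad2 (rows) in each of the 65 Gad cells (columns), ordered by the neuropeptide gene with the most UMIs; the strip marks placebo cells in grey and EPO cells in red. Columns are grouped by their leading gene, 9 cells hold both Cck and Npy, and Adarb2 is seen in 1 of the 13 Sst carriers.

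Across cells, the genes most alike to each neuropeptide gene were found by Pearson's r of log-normalized counts, among genes seen in at least 10% of the cells of a class. Over the 65 Gad cells these were Dner (0.69), Hapln1 (0.64) and Eepd1 (0.61) for Npy, Satb1 (0.70) and Cdh13 (0.54) for Sst, and Fam179b (0.48), Htr3a (0.45) and Hook3 (0.45) for Vip. For Cck they were Gpx1, Snx13 and Rpl8 (0.59 to 0.60). For Tac1 they were Dusp26, Mob1b and Mrpl16 (0.67 to 0.74) and for Penk Pphln1, Pcdh7 and Fcf1 (0.60 to 0.63), in each case over 5 carriers. Over the 325 Slc17a7 cells they were Actb, Ubb and Ywhah for Cck (0.59 to 0.65) and Hpca, Actr3 and Ppp3ca for Penk (0.36 to 0.40). The cells of a mouse share a library and cells differ in depth, so these values describe the cells without a test.

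Cck was also counted outside the neuronal classes, at levels that differed between mice. In the 4292 barcodes with at most 500 genes Cck stood at 113 CPM pooled, above the 70.7 CPM of glial cells and below the 888 CPM of Slc17a7 cells. Placebo mouse 1 had the highest glial share of Cck carriers, 27.5%, and EPO mouse 2 the lowest, 3.66%. Penk, by contrast, had 5.67 CPM in barcodes with at most 500 genes and 1.20 CPM in glial cells, and Npy had 7.09 CPM there and 4 UMIs in glial cells.

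Over all retained barcodes, no neuropeptide gene was called different between EPO and placebo mice. In these sums fewer cells of a type and less RNA per cell cannot be told apart. edgeR called 0 of 10551 genes (0%), with 138 at an unadjusted p under 0.05, and DESeq2 called 1. Cck, Npy, Sst and Penk passed the filter on low counts, and Vip, Tac1, Pdyn and Crh did not.

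Placebo mice 1, 3 and 5 had Cck at 489, 393 and 777 CPM and EPO mice 2, 4 and 6 at 564, 374 and 898 CPM, so the groups overlapped. The log2 difference of EPO minus placebo was 0.07 (SE 0.32, adjusted p = 1.0), and 0.14 (SE 0.35) without the shared barcodes, which took placebo mouse 1 to 366 and EPO mouse 4 to 349 CPM. Its sign turned within D, with EPO minus placebo means of 123 CPM in D1 and -142 CPM in D2. For Penk the placebo mice had 20.2, 52.4 and 45.8 CPM and the EPO mice 20.5, 27.4 and 35.9 CPM, with overlap (-0.44, SE 0.35, adjusted p = 1.0). Its EPO minus placebo means were -15.8 CPM in D1 and -14.2 CPM in D2.

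Npy and Sst showed how much a few cells can set. For Npy the placebo mice had 3.88, 3.74 and 146 CPM and the EPO mice 6.23, 12.1 and 88.4 CPM. The groups overlapped, and the log2 difference of -0.79 (SE 1.09, adjusted p = 1.0) turned to 0.75 (SE 0.93, adjusted p = 1.0) without the barcode highest in each gene. That setting also removed the barcode highest in Cck, which held 22 Npy UMIs in placebo mouse 5. For Sst the placebo mice had 3.88, 0 and 8.77 CPM and the EPO mice 1.78, 65.1 and 14.1 CPM, with overlap (2.31, SE 1.03, adjusted p = 1.0, and 0.51 without EPO mouse 4). EPO mouse 4 fell from 65.1 to 2.34 CPM without 1 cell. In the fit without a filter on low counts, which called 0.106% of 19731 genes, 0.0203% as higher, Sst alone of the 8 genes was called (2.33, adjusted p = 5.27e-04), with that cell included.

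For Vip the placebo mice had 5.43, 3.74 and 6.74 CPM and the EPO mice 19.6, 21.9 and 2.56 CPM. The EPO mice held the 2 highest values and the lowest, and EPO mouse 2 fell to 2.69 CPM without its highest barcode. For Tac1 the placebo mice had 0.78, 0 and 0 CPM and the EPO mice 0.89, 5.58 and 14.1 CPM. These do not overlap, nor did 6.26% of the 10551 genes that passed the filter on low counts, which Tac1 did not pass. The nearest values, in placebo mouse 1 and EPO mouse 2, stand for 1 UMI each, and Tac1 was not called without the filter (adjusted p = 0.178).

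**Figure D4:**
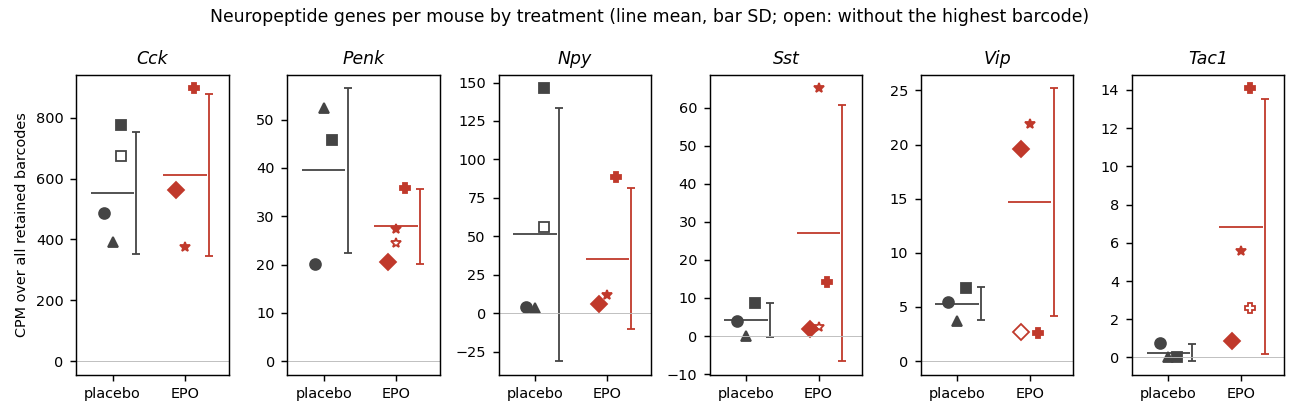
Level in CPM over all retained barcodes (vertical axis, linear) of 6 neuropeptide genes in 3 placebo mice (grey) and 3 EPO mice (red), with the group mean as a line and the SD as a bar; open symbols give the mouse with the highest barcode of that gene without that barcode. The groups overlap for Cck, Penk, Npy, Sst and Vip, and the open symbol of Sst stands at 2.34 against 65.1 CPM.

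In Slc17a7 cells neither Cck nor Penk, the 2 genes tested there, was called, and edgeR called 0 of 7204 genes (0%), with 138 at an unadjusted p under 0.05. The per-mouse levels given above overlapped for both genes. The log2 difference was 0.16 for Cck (SE 0.28, adjusted p = 1.0) and -0.62 for Penk (SE 0.46, adjusted p = 1.0). Penk stood at -0.11 without placebo mouse 3 and at -0.25 with the other gates, which took 161 Slc17a7 cells with at least 2 Slc17a7 UMIs (adjusted p = 1.0 for both in edgeR). Without the shared barcodes Penk rose from 27.5 to 49.7 CPM in placebo mouse 1 and stayed at 32.3 CPM in EPO mouse 4. Penk then stood at -0.97 (SE 0.42, adjusted p = 1.0), and every EPO mouse lay below every placebo mouse, as did 6.77% of genes in either direction with all barcodes.

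In Gad cells Cck was called lower in EPO mice, and 6 of 14 alternatives kept the call. The levels of 498 and 1986 CPM in placebo mice 1 and 5 lay above those of 135, 204 and 198 CPM in EPO mice, and 15.9% of the 975 genes tested did not overlap. The log2 difference was -2.73 (SE 0.58, adjusted p = 0.00374 in edgeR), and Cck was 1 of 2 genes called (0.205%), the other being Sema3c. Without the barcode highest in each gene, which left 60 Gad cells, it was -1.57 (SE 0.55, adjusted p = 0.753 in edgeR). The call was also lost with DESeq2 (-2.71, adjusted p = 0.113), with limma (-2.34, 0.202), without the filter on low counts (-2.70, 0.143), and without placebo mouse 5 (-1.66, 0.797), EPO mouse 4 (-2.84, 0.256) or EPO mouse 6 (-2.71, 0.316). It was lost too with other gates, which took 86 Gad cells with at least 1 Gad UMI and no Slc17a7 UMI (-1.89, adjusted p = 1.0 in edgeR). It was kept with mitochondrial UMIs left out (-2.73, adjusted p = 0.00222 in edgeR), without EPO mouse 2 (-2.66, 0.0373) and with D as a term (-2.90, 9.14e-05). It was also kept with more than 1000 genes per barcode (-3.15, adjusted p = 1.35e-07 in edgeR), with at most 20% mitochondrial UMIs (-3.34, 0.0296) and without placebo mouse 1 (-3.19, 3.98e-05), where placebo mouse 5 was the only placebo mouse and is assumed to vary like the EPO mice. All 14 had the same direction. Placebo mouse 1 rests on 5 Gad cells with 10 Cck UMIs, and the glial level of Cck was 164 CPM in that mouse against 12.6 to 81.5 CPM in EPO mice. Its part in the difference was not tested.

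The other genes tested in Gad cells were not called. Npy differed by -0.07 (SE 0.66, adjusted p = 1.0) and Sst by 2.56 (SE 0.74, adjusted p = 0.151). Without the filter on low counts Sst was not called either (2.63, adjusted p = 0.890 in edgeR). For Sst the difference included the 1 cell of EPO mouse 4 that held 135 of its UMIs. Sst was called with D as a term (adjusted p = 0.0257 in edgeR) and without EPO mouse 2 (0.0455), in each case with that cell included. In these fits and in the main one, Sst passed the filter only through EPO mice 4 and 6, which fixed the direction of a call. It was also called with more than 1000 genes per barcode (adjusted p = 1.56e-04 in edgeR), again with that cell, from placebo mouse 5 alone against EPO mice 4 and 6.

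Genes that process and store neuropeptides were measured beside them. Of 14 such genes, 10 of 13 tested were higher and 2 lower in Slc17a7 than in glial cells, with a median log2 difference of 2.42 against -0.04 over all genes, of which 60.8% were called and 29.4% were higher. Scg2, a granin of dense core vesicles, was higher by 4.84 (SE 0.26, adjusted p = 2.44e-17 in edgeR), and Scg3, another granin, was lower (-2.95), with 1127 CPM in glial cells. At 12.6 CPM in glial cells, Scg2 could pass the filter on low counts only through Slc17a7 cells, which fixed the direction of a call. In Gad against glial cells 7 of 9 were higher and 2 lower (median 2.35 against -0.17 over all genes, of which 47.3% were called and 19.8% were higher), with Chga, chromogranin A, higher by 4.11. Between Gad and Slc17a7 cells 2 of 12 were higher, Chga (0.82) and the amidating enzyme gene Pam (0.81), and 2 lower, the carboxypeptidase gene Cpe (-1.13) and Chgb (-0.78), where 16.0% of all genes were called, 7.44% as higher and 8.56% as lower.

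Of 11 further neuropeptide genes in the table, 2 were tested between Gad and Slc17a7 cells and both were lower in Gad cells, as were 8.56% of all genes tested. Both passed the filter on low counts only through Slc17a7 cells, where they were high, so the filter fixed the direction of a call. Grp, gastrin-releasing peptide, stood at 2.65 CPM in Gad cells and 83.9 CPM in Slc17a7 cells (-4.67, SE 0.89, adjusted p = 4.36e-06), and Nts, neurotensin, at 18.6 and 117 CPM (-2.74, SE 0.57, adjusted p = 4.33e-05). Of the receptors for the peptides, 18 were in the table and only 1 passed the filter in each of these 2 class comparisons with Slc17a7 cells. Npy1r, the Y1 receptor of neuropeptide Y, was higher in Slc17a7 than in glial cells by 4.23 (SE 0.56, adjusted p = 4.62e-08) and stood at 47.7 CPM in Slc17a7, 42.4 in Gad and 1.80 in glial cells. In that comparison Npy1r passed the filter only through Slc17a7 cells, so the filter fixed the direction of a call.

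Activity-regulated genes, which respond to neuronal firing and among which Bdnf is transcribed from cAMP-responsive promoters, were lower in Gad than in Slc17a7 cells for 3 of 4 tested, against 8.56% of all genes. Egr1 stood at 47.7 and 328 CPM (-2.73, adjusted p = 2.35e-09), Bdnf at 31.8 and 173 CPM (-2.27, adjusted p = 5.41e-05) and Junb at 7.96 and 78.6 CPM (-2.91, adjusted p = 8.32e-04). Bdnf and Junb passed the filter on low counts only through Slc17a7 cells, so for them the filter fixed the direction of a call. Between EPO and placebo mice none of the genes of these 4 lists that were tested was called in all cells, in Slc17a7 cells or in Gad cells, where the only ones tested were 9 processing genes. In all cells 14 processing genes, 3 further neuropeptide genes, 8 receptor genes and 7 activity-regulated genes were tested, and the median log2 difference of the processing genes was 0.09 against -0.01 over all genes.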

How the data were processed

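Per the labels, CA1 was digested with papain and profiled by Drop-seq, and the submitters' processing notes name bcl2fastq 2.15, STAR 2.4.0 and the build mm10. The authors deposited these data as UMI counts, unnormalized, in 1 table of genes by barcodes. The annotation is not given in the sources used here. A gene missing for a mouse was set to 0. Glial, endothelial and mural gates used shares of marker UMIs whose limits were set after the shares, but not the neuropeptide genes, had been seen. UMIs were summed per mouse and class (at least 5 cells) and tested with edgeR 4.0.16 (TMM, filterByExpr, glmQLFit) in R 4.3.3, with the mouse as a block between classes. DESeq2 1.42.0 and limma 3.58.1 were alternatives. Scripts were tested on simulated data. Thinning used a fixed seed. Positions come from GENCODE vM21 and promoters from RefSeq, matched by symbol for 6 of the 8 genes. The 8 genes, the gene lists and the rule for named genes (the 8, up to 4 called genes of each list by adjusted p, and the 3 genes most alike to each) were chosen with earlier results of these data known. For Sst, 1 of the 3 most alike genes is not reported here. Placebo mice and EPO mice were taken as separate animals, and the mouse was the unit of the tests. edgeR shares its estimate of spread across genes, so its p-values do not measure the spread of 1 gene between mice alone. For Npy between Gad and Slc17a7 cells, the adjusted p ran from 6.52e-67 to 0.00203 over alternatives with edgeR, DESeq2 and limma.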

Additional observations from a re-analysis of the deposited data

Results flagged for a closer look

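UMIs of 6 neuropeptide genes were found in the 4292 barcodes with at most 500 genes, which entered no comparison, above the 3 counts that a count of 0 allows. Cck had 159 UMIs there, Vip 21, Sst 13, Npy 10, Penk 8 and Tac1 5. For Vip, 3 of these barcodes held at least 3 UMIs, and the highest held 5. No barcode of this set held more than 3 UMIs of Cck or more than 2 of Npy, Sst, Tac1 or Penk.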

How the results depend on the processing

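No paired analysis was possible because placebo and EPO mice share no mouse number. D, which both treatments share, was fitted as a term instead. Without the replicate block of mouse, Cck differed between Gad and Slc17a7 cells by -0.29 (adjusted p = 0.719). Called genes in EPO against placebo were 1 with DESeq2 and 21 (4 higher) without the filter on low counts over all cells, and 11 (4 higher) without the filter in Slc17a7 cells. In Gad cells they were 43 (25 higher) with more than 1000 genes per barcode, 5 with at most 20% mitochondrial UMIs, 8 with D as a term, and 0 with DESeq2, with limma, with other gates (86 Gad cells) and without the barcode highest in each gene. The 43 and the 5 set placebo mouse 5 alone against EPO mice 4 and 6, and leaving out placebo mouse 1 or 5 also left 1 placebo mouse, which is assumed to vary like the other mice. Leaving out each mouse gave 0 to 0 calls over all cells, 0 to 4 in Slc17a7 cells and 0 to 13 in Gad cells. Between Gad and Slc17a7 cells 804 calls became 457 at 20% mitochondrial UMIs, 313 with limma and 527 to 745 with a mouse left out. Calls without the filter were 6147 between Slc17a7 and glial cells and 2883 between Gad and glial cells.

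Directions turned as follows, on the log2 scale. Cck over all cells was -0.0020 with D as a term and -0.21 to 0.35 with a mouse left out, negative without placebo mouse 3 or EPO mouse 6. Cck in Slc17a7 cells was -0.039 to 0.44, negative without EPO mouse 6. Npy over all cells was 0.35 with limma, 0.75 without the barcode highest in each gene and -2.52 to 3.02 with a mouse left out, positive without placebo mouse 5. Npy in Gad cells was 0.065 with DESeq2, 0.037 with limma and 1.45 without the barcode highest in each gene. With a mouse left out it was -2.34 to 2.99, positive without placebo mouse 5, EPO mouse 2 or EPO mouse 4. Between Slc17a7 and glial cells, without the filter, Sst was -2.29 to 0.41 (positive without placebo mouse 1) and Tac1 -1.18 to 0.48 (positive without EPO mouse 4). The cause was not tested. The wider gate, the 1 or 2 highest barcodes, the shared barcodes and the unfiltered fits with a mouse left out were chosen after seeing the data. Depth limits Tac1, Pdyn and Crh, with at most 36 UMIs each, and Gad cells, with 65 in all.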
